A study of Homo sapiens with 12 samples.

Results

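Transcripts of oxygen sensing and sugar breakdown were measured in HK-2, a human cell line immortalized from the epithelium of the renal proximal tubule. The set comprised 39 listed genes: 2 glucose transporters, 15 glycolytic enzymes, 3 PFKFB enzymes that set the level of an activator of phosphofructokinase, 6 genes of pyruvate and lactate fate, 4 regulators of the hypoxia-inducible factors (HIF) and 9 other HIF targets. A gene was a member where a probe set carried its symbol, and where several did, the probe set with the highest mean over the 12 arrays stood for it. This gave 36 members of 19775 named genes. The lactate carriers SLC16A1 and SLC16A3 and the carbonic anhydrase CA9 carried no such symbol in the annotation used and were not analysed here. Levels are log2 values, and 35 members were above 4 in at least 3 of the 12 arrays and were tested among 10665 genes. The remaining member, the aldolase ALDOC, read 2.29 to 2.46 over the 12 arrays and was not tested.

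The study compared 4 groups of 3 biological replicates: cells given a low dose of Kbr for 24 h or for 48 h, and cells given the matching vehicle for the same times. Every group was the same line in the same medium, which held glucose, epidermal growth factor, hydrocortisone, insulin, transferrin and selenite, and cells were near confluence when treated. What Kbr stands for and its concentration are not stated in the labels. As 1 immortalized line in culture, the cells limit what the values show of the kidney: of 14 listed proximal tubule markers 12 were named, and all 12 stayed under a log2 value of 4 on every array (highest 3.76). The labels do not say how the biological replicates were separated, so p-values measure the spread between these samples. Some counts depended on Kbr 48 h replicate 3. Without it, the genes whose Kbr effect was larger or smaller at 48 h than at 24 h went from 7 and 8 to 315 and 164. Genes higher and lower with time in Kbr cells went from 597 and 538 to 1182 and 1024. Those higher and lower with Kbr at 48 h changed little, from 2351 and 2213 to 2307 and 2130.

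In cells with enough oxygen, the prolyl hydroxylases EGLN1 and EGLN3 mark the alpha subunits HIF1A and EPAS1 for capture by VHL and destruction. When oxygen is short the alpha subunits persist, join ARNT and bind a short core sequence near their target genes, among them most enzymes of glycolysis. Much of this control acts on protein, which arrays do not measure. Proximal tubule cells in the kidney live largely on mitochondrial oxidation and depend on oxygen for it, while cultured tubular lines also use glycolysis.

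Promoters of 6 members are shown to set this core beside the measurements: 6 windows of 250 bases that end at the gene start, from RefSeq on GRCh38.p14, each written along the gene's own strand. LDHA lies at chr11:18394313-18394562 (plus strand), BNIP3 at chr10:131981924-131982173 (minus), ANKRD37 at chr4:185396591-185396840 (plus), EPAS1 at chr2:46297157-46297406 (plus), SLC2A1 at chr1:42958869-42959118 (minus) and P4HA2 at chr5:132227092-132227341 (minus). Capitals mark matches to the core ACGTG or GCGTG on either strand (CACGT and CACGC when read along the gene). The run CACGTG counts as 2 overlapping matches of ACGTG, 1 on each strand.
LDHA: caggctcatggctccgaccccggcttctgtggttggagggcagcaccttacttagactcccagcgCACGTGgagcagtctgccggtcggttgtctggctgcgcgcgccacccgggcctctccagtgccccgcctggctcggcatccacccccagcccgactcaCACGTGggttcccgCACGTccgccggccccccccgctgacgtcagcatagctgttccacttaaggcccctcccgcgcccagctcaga
BNIP3: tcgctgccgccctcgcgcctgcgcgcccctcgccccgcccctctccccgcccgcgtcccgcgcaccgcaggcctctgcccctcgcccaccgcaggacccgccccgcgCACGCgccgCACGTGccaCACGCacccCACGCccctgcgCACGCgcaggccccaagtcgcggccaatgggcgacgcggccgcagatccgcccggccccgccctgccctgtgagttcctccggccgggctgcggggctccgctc
ANKRD37: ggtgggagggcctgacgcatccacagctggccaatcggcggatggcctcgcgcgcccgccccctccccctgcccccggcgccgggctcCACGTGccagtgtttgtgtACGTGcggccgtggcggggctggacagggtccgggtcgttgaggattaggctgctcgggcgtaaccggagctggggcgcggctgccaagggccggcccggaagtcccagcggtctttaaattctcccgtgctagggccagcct
EPAS1: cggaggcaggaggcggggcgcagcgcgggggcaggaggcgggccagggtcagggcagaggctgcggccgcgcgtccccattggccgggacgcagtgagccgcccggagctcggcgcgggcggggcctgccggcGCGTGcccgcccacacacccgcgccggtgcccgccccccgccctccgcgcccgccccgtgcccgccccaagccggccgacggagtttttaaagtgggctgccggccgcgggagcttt
SLC2A1: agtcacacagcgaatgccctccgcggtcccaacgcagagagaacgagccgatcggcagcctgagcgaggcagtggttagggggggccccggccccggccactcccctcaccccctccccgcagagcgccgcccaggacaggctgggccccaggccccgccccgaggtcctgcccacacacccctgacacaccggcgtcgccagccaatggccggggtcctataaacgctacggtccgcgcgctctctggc
P4HA2: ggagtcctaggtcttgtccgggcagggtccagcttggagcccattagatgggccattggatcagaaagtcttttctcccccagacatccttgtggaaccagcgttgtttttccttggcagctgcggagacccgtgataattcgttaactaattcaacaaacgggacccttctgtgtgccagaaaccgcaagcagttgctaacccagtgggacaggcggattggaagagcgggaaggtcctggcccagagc

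The windows shown for LDHA (lactate dehydrogenase A, which has a further start whose window is not shown), BNIP3 (a mitochondrial death and mitophagy protein) and ANKRD37 (an ankyrin repeat protein) hold 5, 2 and 3 matches to ACGTG, and among these members only ANKRD37 passed the test at 48 h. The BNIP3 window also holds 4 matches to GCGTG, and the windows shown for LDHA and ANKRD37 hold none. The EPAS1 window holds 1 match to GCGTG and none to ACGTG. That of the glucose transporter SLC2A1 holds neither, and EPAS1 and SLC2A1 both rose at 48 h. P4HA2, an alpha subunit of the collagen prolyl hydroxylase, fell at both times and its window holds no match. A window was on hand for 32 of the 36 members (SLC2A3, PFKFB2, BNIP3L and NDRG1 had none in the table used). ACGTG stood in 18 of these 32, or 56.2%, against 29.7% of the 8851 tested genes with a window and 21.7% of all 27305 genes with one. A gene with several starts has several windows and was counted once, where any of them held the core. This favours genes with many starts, such as HK1 and PFKM with 7 windows each. Members were listed as genes of glycolysis or the HIF response. Their high share of ACGTG is therefore a trait of the list and not a result of these arrays. GCGTG stood in 53.1% of these members, 54.7% of tested genes and 36.2% of all genes. By the call at 48 h, ACGTG was present in 2 of 5 members that rose, 2 of 3 that fell and 13 of 23 that did not pass. A match is only a run of letters, and these windows leave out enhancers.

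**Figure D1:**
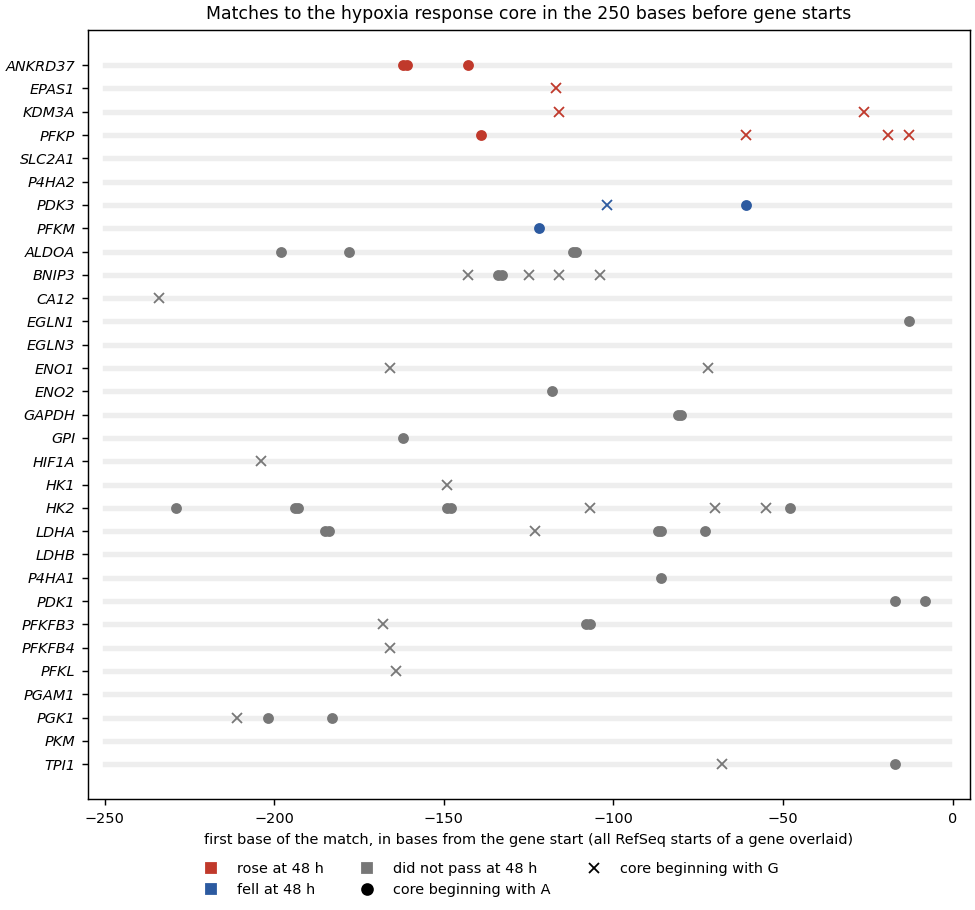
Positions of matches to the HIF core within the 250 bases before the gene start, in bases from the start (x axis), for the 31 tested members with a window (rows), with circles for the core beginning with A and crosses for that beginning with G. Red rows rose, blue rows fell and grey rows did not pass at 48 h. Matches lie in rows of all 3 colours. The SLC2A1 (red) and P4HA2 (blue) rows are empty, as are the grey rows of PGAM1, PKM, LDHB and EGLN3.

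After 24 h of Kbr, P4HA2 fell and no other member passed the test. The 14 tested glycolytic enzymes had log2 changes of -0.30 to 0.16 and the 4 HIF regulators of -0.22 to 0.38. Of all genes tested, 2.48% rose and 3.25% fell at 24 h (5.74% in either direction), and of the 35 members 0 rose and 1 fell. Here rose and fell mean an adjusted p under 0.05 by limma over the 10665 genes. At an unadjusted p under 0.05 there were 2 members up and 2 down. The members' median log2 change was -0.03, against -0.02 over all genes.

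P4HA2 read 10.15, 10.21 and 10.28 in 24 h controls and 9.49, 9.44 and 9.64 in 24 h Kbr cells. It read 9.45, 9.45 and 9.65 in 48 h controls and 8.85, 8.81 and 8.83 in 48 h Kbr cells. Every Kbr array lay below every control of its time, and the 48 h controls had come down to where the 24 h Kbr arrays lay. P4HA2 was 1.62-fold lower at 24 h (log2 change -0.69, SE 0.09, adjusted p = 0.00367) and 1.61-fold lower at 48 h (-0.69, SE 0.09, adjusted p = 0.000278). Its counterpart P4HA1, the other common alpha subunit of that enzyme, did not pass at either time, with log2 changes of 0.16 and 0.35. Within arrays, the log2 ratio of P4HA1 to P4HA2 was higher in Kbr cells by 0.86 at 24 h and 1.03 at 48 h, with no overlap between Kbr and control arrays.

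With the replicate number as a block, 1 member rose and 3 fell at 24 h, where 10.4% and 14% of all genes did, so the members were called no more often than genes at large. These were the histone demethylase KDM3A (log2 change 0.28, adjusted p = 0.0241, and 0.11 without the block), P4HA2, the pyruvate dehydrogenase kinase PDK3 (-0.45, 0.0122, and 0.105 without) and the liver-type phosphofructokinase PFKL (-0.30, 0.0378, and 0.38 without). In 3 members (SLC2A1, P4HA1, KDM3A) the 24 h Kbr arrays all lay above the controls, and in 2 (PDK1, P4HA2) all below, where 15.9% of all genes lay wholly above and 15.9% wholly below.

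At 48 h 10 of 35 members passed. There 6 rose, namely EPAS1, SLC2A1, NDRG1, ANKRD37, PFKP and KDM3A, and 4 fell, namely PDK3, P4HA2, BNIP3L and PFKM. That is 28.6% of members against 42.8% of all genes tested, of which 22% rose and 20.8% fell, so the members were called no more often than genes at large. The members' median log2 change was 0.08 and that of all genes 0.00. In absolute size the median member differed by 0.28 on the log2 scale and the median gene by 0.35. Over 2-fold changes were seen in 3 members (EPAS1, SLC2A1, NDRG1) and in 10.2% of all genes.

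**Figure D2:**
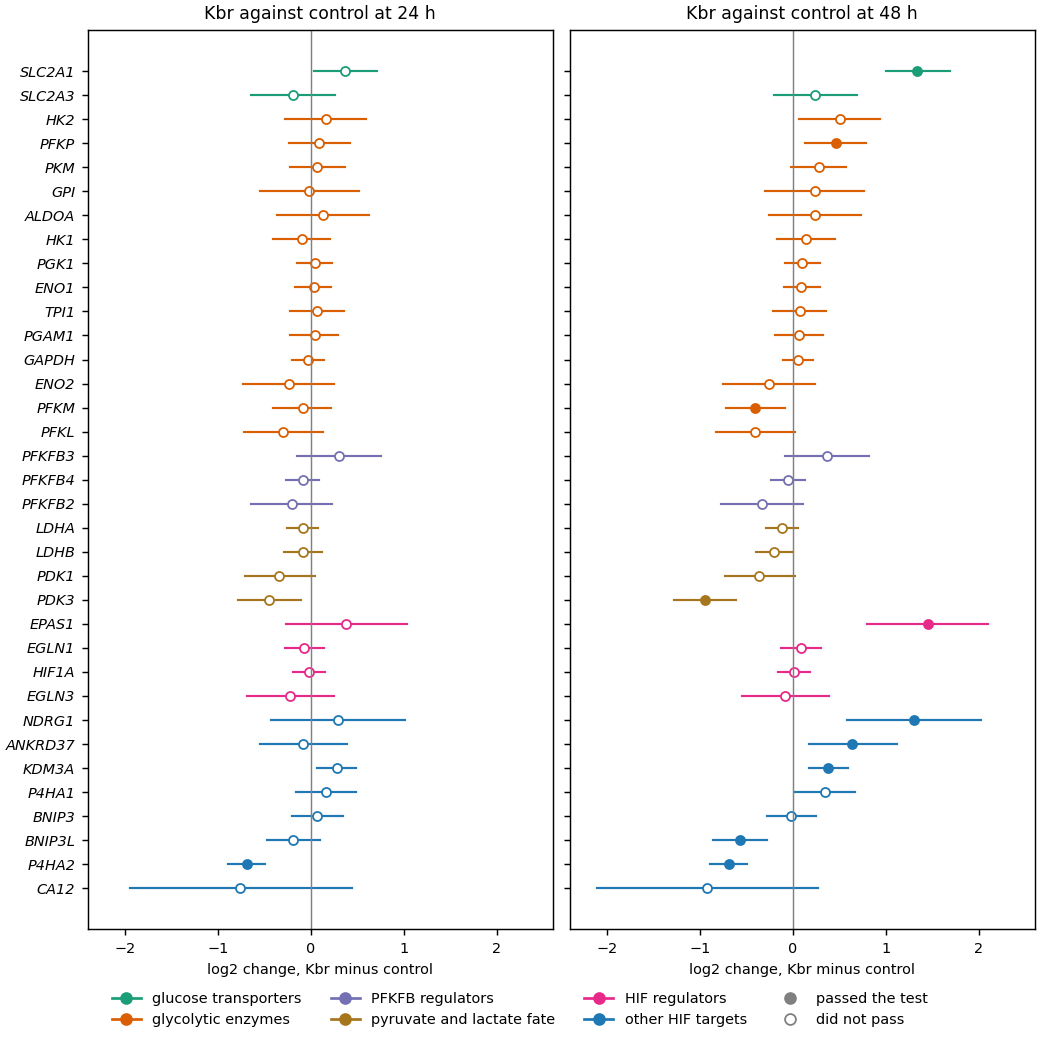
Log2 change of Kbr-treated over control cells with its 95% interval (x axis) for the 35 tested members (rows, coloured by role) at 24 h (left) and 48 h (right); filled points passed the test. At 24 h only P4HA2 is filled, and at 48 h 6 members to the right of 0 and 4 to the left are filled.

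By role, the 23 tested glycolytic members (transporters, enzymes, PFKFB regulators, and pyruvate and lactate genes) gave 2 rises and 2 falls at 48 h, or 17.4%, with a median log2 change of 0.08. Among the 4 HIF regulators 1 rose, and the median was 0.05. Of the 8 other HIF targets tested, 3 rose and 2 fell, with a median of 0.17. The shares called were thus 17.4%, 25% and 62.5%, against 42.8% of all genes. These are counts of a few genes, and no test between roles or against other genes was made.

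The glucose transporter SLC2A1 carries glucose across the plasma membrane and is a textbook HIF target. It read 7.33, 7.33 and 7.68 in 24 h controls, 7.79, 7.77 and 7.88 in 24 h Kbr cells, 6.72, 6.67 and 7.13 in 48 h controls and 8.44, 8.03 and 8.08 in 48 h Kbr cells. All Kbr arrays lay above all controls at both times, and the 48 h gap was widened by controls that read lower than at 24 h. SLC2A1 rose 2.54-fold at 48 h (log2 change 1.34, SE 0.16, adjusted p = 0.000147), while its 24 h change of 0.37 (SE 0.16, adjusted p = 0.18) did not pass. The 48 h change was larger than that at 24 h by 0.98 on the log2 scale (SE 0.22), with an adjusted p of 0.103, or 0.0235 with the replicate block. A further SLC2A1 probe set stayed under the floor with a mean of 2.22. Averaging both gave a log2 change of 0.68 at 48 h. SLC2A3, a transporter of high affinity, had log2 changes of -0.19 and 0.24 (adjusted p = 0.626 and 0.36). Without control 48 h replicate 3 it passed at 48 h (0.49, adjusted p = 0.0329), while its other probe sets stood at 0.03 and -0.03.

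Of the 14 tested glycolytic enzymes, PFKP rose and PFKM fell at 48 h. They encode the platelet-type and muscle-type subunits of phosphofructokinase, the enzyme of the committed step of glycolysis. PFKP read 10.92, 10.48 and 10.80 in 24 h controls, 10.91, 10.71 and 10.85 in 24 h Kbr cells, 10.82, 10.51 and 10.77 in 48 h controls and 11.40, 10.93 and 11.16 in 48 h Kbr cells. At 48 h every Kbr array lay above every control, while at 24 h the groups overlapped. PFKP was 1.38-fold higher at 48 h (log2 change 0.46, SE 0.15, adjusted p = 0.028). PFKM read 10.38, 10.07 and 9.97 in 24 h controls, 10.18, 10.02 and 9.94 in 24 h Kbr cells, 10.84, 10.45 and 10.37 in 48 h controls and 10.14, 10.07 and 10.22 in 48 h Kbr cells. Here the 48 h controls stood high and the 48 h Kbr arrays stayed at the 24 h level. PFKM was 1.33-fold lower at 48 h (log2 change -0.41, SE 0.14, adjusted p = 0.039), and the within-array ratio of PFKP to PFKM was higher by 0.87 in Kbr cells with no overlap. The liver-type subunit PFKL had a log2 change of -0.41 that passed with the replicate block alone (adjusted p = 0.113 without and 0.00361 with it).

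Both phosphofructokinase calls hung on few arrays. Of 12 fits that each left out 1 array, PFKP kept its call in 9 and PFKM in 6. With the replicate block both passed by limma (adjusted p = 0.000579 for PFKP and 0.00692 for PFKM). PFKP lost its call without control 48 h replicate 2 (adjusted p = 0.0998), Kbr 48 h replicate 1 (0.102) or Kbr 48 h replicate 3 (0.0558), with no filter (0.0574), with the mean of its probe sets (0.0597) and with the 48 h groups alone (0.0598). PFKM lost it without Kbr 24 h replicate 2 (0.0525), control 48 h replicate 1 (0.146) or 2 (0.0517), or Kbr 48 h replicate 1 (0.0794), 2 (0.108) or 3 (0.0521), with no filter (0.0735), with array medians subtracted (0.0521) and with the 48 h groups alone (0.0719).

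The other 12 tested enzymes did not pass at 48 h. GAPDH, the dehydrogenase of the middle of the pathway, read 15.57, 15.61 and 15.58 in 24 h controls, 15.49, 15.60 and 15.59 in 24 h Kbr cells, 15.61, 15.52 and 15.60 in 48 h controls and 15.57, 15.68 and 15.65 in 48 h Kbr cells. The groups overlapped at both times, with a log2 change of 0.05 at 48 h (95% interval -0.11 to 0.22, adjusted p = 0.602). Levels of members such as GAPDH, LDHA, LDHB, ENO1 and HIF1A lay near the top of the scale, where array maxima were 16.0 to 16.2. Whether signal was compressed there was not tested. PGK1, ENO1, TPI1 and PGAM1, further enzymes of the pathway, had 48 h log2 changes of 0.10, 0.09, 0.08 and 0.07.

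HK2, the inducible hexokinase that traps glucose in the cell, read 8.74, 8.18 and 8.44 in 24 h controls, 8.68, 8.57 and 8.58 in 24 h Kbr cells, 9.04, 8.87 and 8.59 in 48 h controls and 9.65, 9.44 and 8.92 in 48 h Kbr cells. Kbr replicates 1 and 2 at 48 h lay above all controls and replicate 3 among them. Its 48 h log2 change of 0.51 (SE 0.20) had an adjusted p of 0.0583, of 0.0138 with the replicate block and of 0.00886 without Kbr 48 h replicate 3. With the block, ALDOA (0.0272), GPI (0.0103) and the pyruvate kinase PKM (0.0117) also passed at 48 h in the upward direction, at log2 changes of 0.24, 0.24 and 0.28. The block thus brought the 23 glycolytic members to 7 rises and 5 falls, where it called 57.5% of all genes.

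The PFKFB enzymes did not pass without the block. At 48 h PFKFB3, the isoform whose kinase activity most outweighs its phosphatase activity, had a log2 change of 0.37 (adjusted p = 0.162, or 0.01 with the block), and its 48 h Kbr arrays, 9.94, 10.15 and 9.92, lay just above the controls at 9.65, 9.90 and 9.33. PFKFB2 had a log2 change of -0.33 (0.201, or 0.0212 with the block) and PFKFB4 one of -0.05.

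Among genes of pyruvate and lactate fate, PDK3 fell. The PDK kinases switch off the pyruvate dehydrogenase complex and so hold pyruvate back from mitochondria. PDK3 read 8.80, 8.98 and 8.43 in 24 h controls, 8.25, 8.48 and 8.13 in 24 h Kbr cells, 9.37, 9.35 and 9.06 in 48 h controls and 8.23, 8.43 and 8.30 in 48 h Kbr cells. Controls stood higher at 48 h than at 24 h while the Kbr arrays stayed put, and at 48 h the groups did not overlap. PDK3 was 1.92-fold lower at 48 h (log2 change -0.94, SE 0.15, adjusted p = 0.000786). With every probe set tested by itself, 1 further PDK3 probe set also passed (-1.32, adjusted p = 0.000689), and those at -0.42 and -0.30 did not.

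PDK1, the kinase most often named as a HIF target, read 9.02, 8.81 and 8.86 in 24 h controls, 8.72, 8.69 and 8.27 in 24 h Kbr cells, 8.97, 8.99 and 9.20 in 48 h controls and 9.02, 8.68 and 8.37 in 48 h Kbr cells. The groups were apart at 24 h and overlapped at 48 h, and log2 changes of -0.34 and -0.36 did not pass (adjusted p = 0.258 and 0.111). Without Kbr 48 h replicate 1, PDK1 passed at 48 h (-0.52, adjusted p = 0.0282). LDHA, which turns pyruvate into lactate, read 14.95, 14.97 and 14.89 in 24 h controls, 14.83, 14.91 and 14.79 in 24 h Kbr cells, 14.90, 14.87 and 14.95 in 48 h controls and 14.74, 14.78 and 14.85 in 48 h Kbr cells. Its 48 h Kbr arrays lay just below the controls, at a log2 change of -0.12 (95% interval -0.29 to 0.05, adjusted p = 0.24). LDHB, whose enzyme favours the reverse reaction, had a log2 change of -0.20 (adjusted p = 0.0972, or 0.0204 with the block).

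Among HIF regulators, the transcript of EPAS1 rose and that of HIF1A did not pass. HIF1A read 14.60, 14.60 and 14.62 in 24 h controls, 14.63, 14.57 and 14.56 in 24 h Kbr cells, 14.58, 14.68 and 14.72 in 48 h controls and 14.66, 14.74 and 14.64 in 48 h Kbr cells. Kbr and control arrays of the same time overlapped, with log2 changes of -0.02 at 24 h (95% interval -0.19 to 0.15) and 0.01 at 48 h (-0.16 to 0.18). EPAS1 read 11.27, 11.27 and 11.99 in 24 h controls, 11.63, 11.68 and 12.37 in 24 h Kbr cells, 11.40, 11.34 and 12.20 in 48 h controls and 13.46, 12.94 and 12.89 in 48 h Kbr cells. Replicate 3 was the highest of its group in every group but the last, and the 48 h Kbr arrays were above all others.

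EPAS1 rose 2.73-fold at 48 h (log2 change 1.45, SE 0.30, adjusted p = 0.00288), whereas 0.38 at 24 h did not pass (adjusted p = 0.473). The difference between the times was 1.07 (SE 0.42, adjusted p = 0.245). A further probe set of EPAS1, tested by itself, passed too, with a log2 change of 2.02 at 48 h (adjusted p = 0.0104). The within-array ratio of EPAS1 to HIF1A was higher by 1.44 in Kbr cells at 48 h with no overlap between the groups. HIF1A lay near the top of the scale, and whether its signal was compressed was not tested.

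The hydroxylases did not pass with the probe sets that stood for them. EGLN1 read 10.46, 10.38 and 10.33 in 24 h controls, 10.42, 10.27 and 10.28 in 24 h Kbr cells, 10.54, 10.34 and 10.27 in 48 h controls and 10.56, 10.48 and 10.38 in 48 h Kbr cells. The groups overlapped at both times, and its 48 h log2 change was 0.09 (95% interval -0.13 to 0.30, adjusted p = 0.507). With the mean of its probe sets EGLN1 passed at 48 h (log2 change 0.27, adjusted p = 0.0186). EGLN3, itself a strong HIF target in many cells, read 5.14, 5.00 and 5.33 in 24 h controls, 4.95, 4.73 and 5.13 in 24 h Kbr cells, 5.06, 4.37 and 4.99 in 48 h controls and 4.47, 4.59 and 5.13 in 48 h Kbr cells. These values lay near the floor of 4 and overlapped at both times, with a 48 h log2 change of -0.08 (95% interval -0.55 to 0.39, adjusted p = 0.80). A further measured EGLN3 probe set stood at -0.93 at both times (adjusted p = 0.174 and 0.0615).

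**Figure D3:**
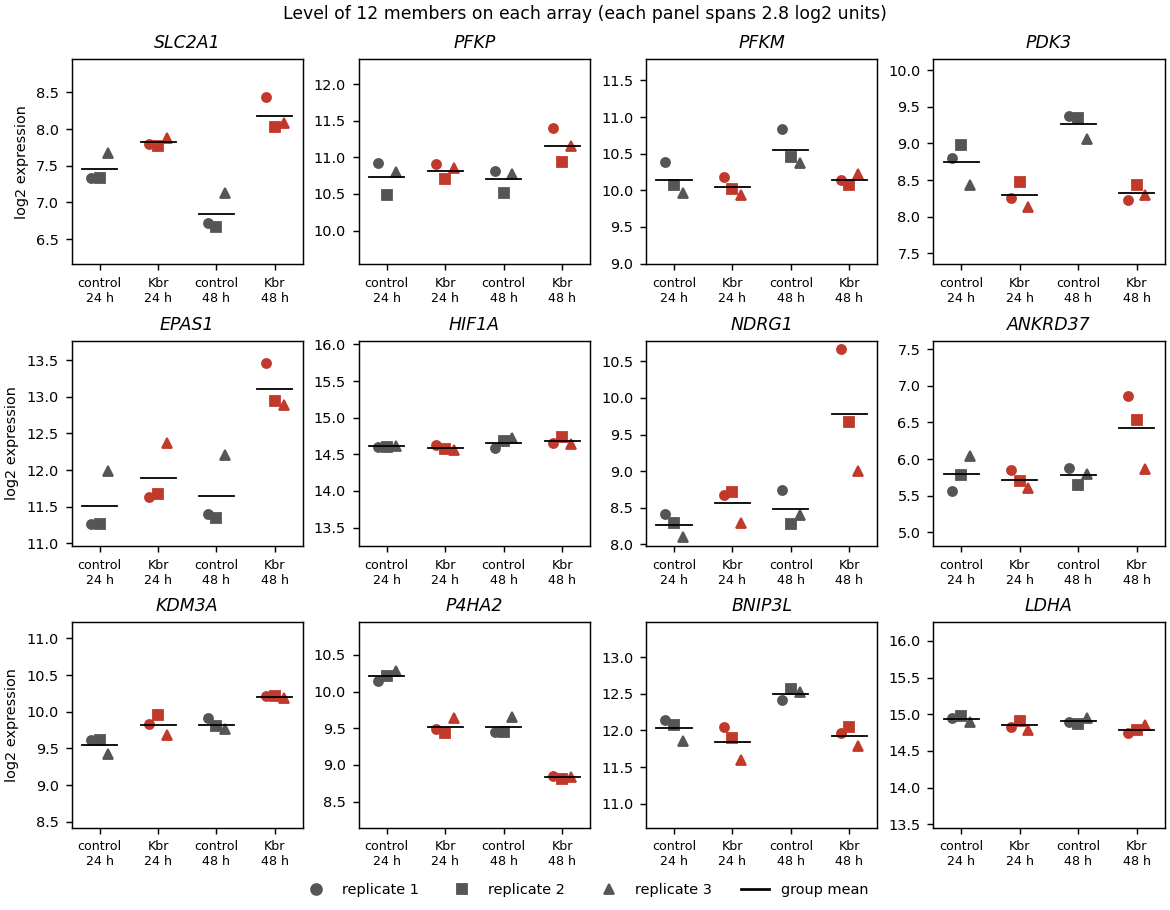
Log2 expression (y axis) of 12 members on each array, by group (x axis), with marker shapes for replicates 1 to 3 and a line at the group mean; each panel spans the same 2.8 log2 units. HIF1A and LDHA stay level, SLC2A1 and EPAS1 are highest in the 48 h Kbr arrays, and P4HA2 is lower in Kbr cells at both times.

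The other HIF targets moved in both directions. NDRG1, a cytoplasmic protein induced by hypoxia and other stresses, read 8.42, 8.30 and 8.10 in 24 h controls, 8.67, 8.72 and 8.30 in 24 h Kbr cells, 8.75, 8.28 and 8.40 in 48 h controls and 10.66, 9.67 and 9.00 in 48 h Kbr cells. All 48 h Kbr arrays lay above the controls but were widely spread (SD 0.83, n = 3, against 0.16 to 0.24 in the other groups). NDRG1 rose 2.46-fold (log2 change 1.30, SE 0.33, adjusted p = 0.00863). The change was 0.86 without Kbr 48 h replicate 1, which was the highest, and 1.69 without replicate 3, the lowest.

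ANKRD37 read 5.57, 5.78 and 6.04 in 24 h controls, 5.85, 5.70 and 5.61 in 24 h Kbr cells, 5.88, 5.65 and 5.80 in 48 h controls and 6.86, 6.53 and 5.87 in 48 h Kbr cells. Kbr 48 h replicate 3 lay among the controls while the others lay above them. ANKRD37 was 1.56-fold higher at 48 h (log2 change 0.64, SE 0.21, adjusted p = 0.0316). The log2 change was 0.42 without Kbr 48 h replicate 1, 0.92 without replicate 3 and 0.33 with the mean of its probe sets. It lost its call without control 48 h replicate 1 (adjusted p = 0.0542), 2 (0.0914) or 3 (0.0628), without Kbr 48 h replicate 1 (0.114) or 2 (0.0911), with no filter (0.0802) and with the 48 h groups alone (0.0863).

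KDM3A, a histone demethylase that is a HIF target and itself needs oxygen, read 9.61, 9.61 and 9.43 in 24 h controls, 9.83, 9.96 and 9.68 in 24 h Kbr cells, 9.91, 9.80 and 9.76 in 48 h controls and 10.21, 10.21 and 10.19 in 48 h Kbr cells. Kbr arrays lay above the controls of their time throughout. KDM3A rose 1.30-fold at 48 h (log2 change 0.38, SE 0.10, adjusted p = 0.0086).

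BNIP3L, a mitophagy receptor of the outer mitochondrial membrane, read 12.14, 12.08 and 11.86 in 24 h controls, 12.05, 11.89 and 11.59 in 24 h Kbr cells, 12.41, 12.56 and 12.52 in 48 h controls and 11.96, 12.04 and 11.79 in 48 h Kbr cells. The 24 h groups overlapped and the 48 h groups did not. BNIP3L was 1.48-fold lower at 48 h (log2 change -0.57, SE 0.13, adjusted p = 0.00541), with a further probe set at -0.47 (adjusted p = 0.0256). Its relative BNIP3 had log2 changes of 0.07 and -0.02, and the within-array ratio of BNIP3 to BNIP3L was higher by 0.55 in 48 h Kbr cells with no overlap. Of the other pairs of related members compared in this way, SLC2A1 to SLC2A3 was apart at both times. The ratios of HK2 to HK1, ENO1 to ENO2, LDHA to LDHB, PDK1 to PDK3 and EGLN1 to EGLN3 overlapped at both times. A ratio that holds a called gene partly restates that call, and no share over other gene pairs was taken.

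The membrane carbonic anhydrase CA12 showed the widest spread among members. It read 9.41, 9.36 and 7.74 in 24 h controls, 8.56, 8.58 and 7.10 in 24 h Kbr cells, 10.23, 9.68 and 8.65 in 48 h controls and 8.49, 8.95 and 8.37 in 48 h Kbr cells. Replicate 3 was the lowest in every group, and the Kbr array lay below the control of the same number in all pairs at both times. Its 48 h log2 change of -0.92 (SE 0.54) had an adjusted p of 0.194, or 0.0169 with the replicate block.

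With the block the members' 48 h counts came to 11 rises and 8 falls, from 6 and 4, while over all genes 28.7% rose and 28.8% fell. Wholly separate 48 h arrays were seen in 6 members above (SLC2A1, PFKP, PFKFB3, EPAS1, NDRG1, KDM3A) and 6 below (PFKM, LDHA, LDHB, PDK3, BNIP3L, P4HA2), where 26% of all genes lay wholly above and 24.9% wholly below. A p that missed the threshold does not show an equal level. Of the 25 members that did not pass at 48 h, 12 had a 95% interval within 0.5 on the log2 scale of 0 (1.41-fold either way), as had 18 of 34 at 24 h.

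**Figure D4:**
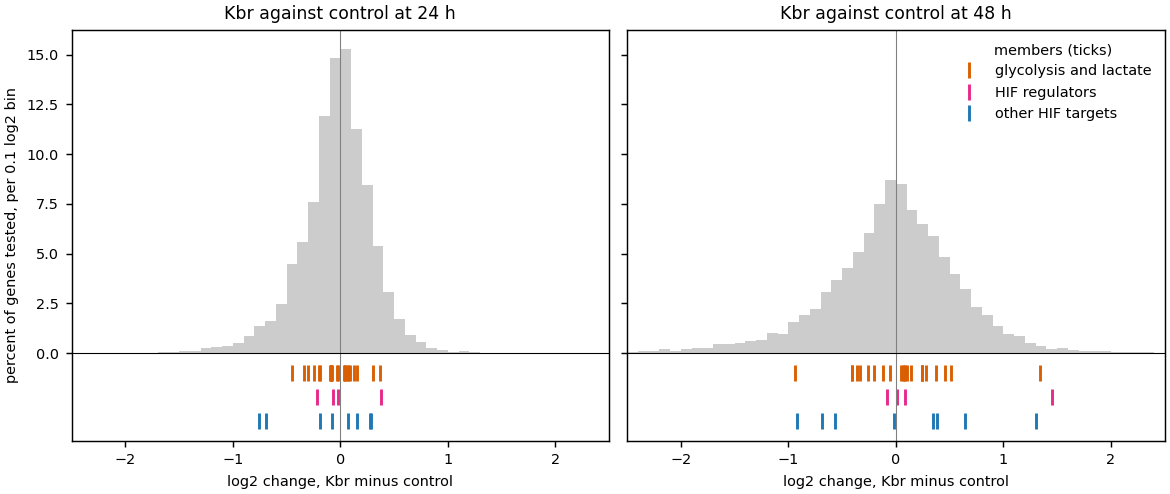
Distribution of log2 changes of the 10665 genes tested (grey bars, percent of genes per bin of 0.1) at 24 h (left) and 48 h (right), with a tick below for each tested member, in rows by role. Most ticks lie under the middle of the grey distribution, and at 48 h SLC2A1, EPAS1 and NDRG1 lie to the right of 1.

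No member passed the test of a difference between the 24 h and 48 h effects of Kbr. Of all genes, 0.0656% had a larger and 0.075% a smaller signed change at 48 h than at 24 h, and of the members 0 and 0 did by limma, with 3 and 1 at an unadjusted p under 0.05. With the replicate block SLC2A1 passed, as did 3.41% of all genes in that direction and 3.95% in the other. Without Kbr 48 h replicate 3, SLC2A1 (adjusted p = 0.0435) and ANKRD37 (0.033) passed it. At 48 h, HK2 (0.00886) and P4HA1 (0.0348) then passed while PFKP and PFKM did not, which gave 7 rises and 3 falls among members.

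Time alone also moved some members. In control cells 1.42% of all genes rose and 1.88% fell from 24 h to 48 h, and of the members PFKFB2 rose (log2 change 0.83, adjusted p = 0.0483) and P4HA2 fell (-0.70, adjusted p = 0.00842). The block brought these counts to 7 and 3, and those of all genes to 9.23% and 13.3%. In Kbr cells 5.6% of genes rose and 5.04% fell with time, and of the members 6 rose (EPAS1, NDRG1, SLC2A3, HK2, PFKFB2, KDM3A) and P4HA2 fell. With the block 10 members rose and 1 fell, and of all genes 14.2% and 16.4%. These comparisons share the Kbr or control arrays with those above.

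The rises with time rested on few arrays. No member rose in Kbr cells without Kbr 24 h replicate 1 or without Kbr 48 h replicate 1 or 2, 1 did without Kbr 24 h replicate 2 or 3, and 3 did without control 48 h replicate 2. In control cells the rise of PFKFB2 kept its call in 2 of 12 fits that each left out 1 array, those without control 24 h replicate 1 and Kbr 48 h replicate 1, with adjusted p up to 0.215.

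Other genes of the pathway were taken from lists that hold no member. Of 10 tested components of the HIF machinery 0 passed at 24 h (also 0 at an unadjusted p under 0.05), while at 48 h 3 rose and 1 fell, or 40% against 42.8% of all genes. The coactivators CREBBP (log2 change 0.50, adjusted p = 0.0197) and EP300 (0.44, 0.0308) and the cullin CUL2 (0.52, 0.027) rose, and RBX1, the ring protein of the ubiquitin ligase that VHL guides, fell (-0.58, 0.00687). ARNT, the partner of the alpha subunits, had a log2 change of -0.01 at 48 h and VHL one of 0.08.

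Of 24 further hypoxia-inducible genes, ADM alone rose at 24 h and 0 fell, and at 48 h 5 rose and 2 fell. The vasodilator peptide gene ADM read 6.04, 6.08 and 6.30 in 24 h controls, 7.61, 7.82 and 8.70 in 24 h Kbr cells, 5.72, 6.24 and 6.21 in 48 h controls and 9.18, 8.94 and 8.96 in 48 h Kbr cells, and was 7.83-fold higher at 48 h (adjusted p = 3.57e-05). The angiogenic factor VEGFA read 10.58, 9.76 and 9.89 in 48 h controls and 12.37, 12.43 and 11.63 in 48 h Kbr cells, a 4.18-fold rise (adjusted p = 0.000194). In both genes the 48 h Kbr arrays lay above all 48 h controls, as they did in 26% of all genes. The hydroxylase JMJD6 (log2 change 0.85), the oxidase ERO1A (0.52) and STC2 (1.74) also rose, KDM4B (-0.50) and INSIG2 (-0.33) fell. The list's median log2 change was -0.11 at 24 h and -0.09 at 48 h. Of the list 4.17% was called at 24 h and 29.2% at 48 h, against 5.74% and 42.8% of all genes. With the block 2 genes of this list rose and 7 fell at 24 h, where 10.4% and 14% of all genes did. STC2, KDM4B and INSIG2 are named after their values were seen, to complete these counts.

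Of 9 other enzymes of glycolysis and gluconeogenesis tested, 0 passed at 24 h (2 up and 0 down at an unadjusted p under 0.05). With the block 1 rose and 0 fell at 24 h, where 10.4% and 14% of all genes did. This was TIGAR, a phosphatase that slows glycolysis (log2 change 0.48, adjusted p = 0.00481, and 0.101 without the block). At 48 h 33.3% passed, against 42.8% of all genes. TIGAR (log2 change 1.03, adjusted p = 0.000686) and the hexokinase-like HKDC1 (1.17, 0.0212) rose and PGM1 (-0.30, 0.038) fell. Of 24 genes of pyruvate entry into mitochondria and the citrate cycle, 0 passed at 24 h (2 up and 8 down at an unadjusted p under 0.05), while at 48 h 3 rose and 8 fell, or 45.8%, close to the 42.8% of all genes. Among the falls were the pyruvate carrier MPC1 (-0.96, adjusted p = 0.000208), SUCLG2 of the citrate cycle (-0.77, 0.000302) and the kinase PDK2 (-1.46, 0.00168). The dehydrogenase subunit IDH3A (0.84, 0.000248) and PDHX of the pyruvate dehydrogenase complex (0.68, 0.000686) were among the rises. PDK4 (-0.24, 0.545) did not pass. With the block 2 genes of this list rose and 6 fell at 24 h, against 10.4% and 14% of all genes.

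Epithelial markers, the kind of cell this line came from, and markers of other cell types were read beside these values. All 4 endothelial markers and the 3 named leukocyte markers were under 4 on every array. The mean level of 5 epithelial markers was 11.27 to 11.75 in 48 h controls and 10.60 to 11.07 in 48 h Kbr cells, and KRT19, EPCAM and CDH1 fell at 48 h. KRT18 went the other way, with a 48 h log2 change of 0.36 (adjusted p = 0.087, or 0.0179 with the block). KRT8 passed with the block alone, at -0.66 at 48 h (adjusted p = 0.0843 without and 0.00043 with it) and -0.53 at 24 h (0.281 and 0.00594). At 24 h KRT19 (-0.85), CDH1 (-1.75), COL1A1 (-1.30) and DCN (-0.73) fell, beside the fall of P4HA2 at that time. The mean of 5 fibroblast markers was 7.07 to 7.17 in 48 h controls and 5.97 to 6.13 in 48 h Kbr cells, with falls in COL1A1, LUM and DCN and COL3A1 and PDGFRB under the floor. The part of these markers in the member values was not tested. In bulk RNA, fewer cells of a kind and less RNA per cell cannot be told apart.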

How the data were processed

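The submitters' processing notes name GCRMA as the tool behind the deposited log2 values (12 arrays, 54675 probe sets), without its version or settings. The background step of GCRMA pulls weak probe sets to a floor. Symbols came from the platform annotation (1 symbol for 41091 probe sets, several for 1801, none for 11721). Array medians were 2.91 to 2.99, arrays of a group correlated at 0.982 to 0.993, and the number of arrays limits the precision.

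Group means of all 12 arrays were fitted with limma 3.58.1 (lmFit, eBayes) in R 4.3.3 to genes above 4 in at least 3 arrays. P-values are two-sided, adjusted by Benjamini-Hochberg over 10665 genes, with a threshold of 0.05. The fit was tested on simulated data. Members and lists were chosen with earlier results of these data known. Values by array are given for members past the test, and for HIF1A, EPAS1, EGLN1, EGLN3, GAPDH, HK2, PDK1, LDHA and SLC2A1 whatever their values. CA12 was added after its spread was seen. Of each other list up to 4 genes with the smallest p are named, with VEGFA, ADM, ARNT, VHL, PDK2 and PDK4.

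Replicate numbers come from the labels. Deviations from group means correlated at 0.28 to 0.70 over 18 pairs of the same number and at -0.45 to -0.061 over 36 of different numbers, so blocked values stand beside results they change. Other alternatives were no filter, a floor of 6, array medians subtracted, averaging over probe sets, intensity trend with robust variance, only the groups compared, and leaving out each array.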

Additional observations from a re-analysis of the deposited data

How the results depend on the processing

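With the replicate block, paired by the labels' numbers, 1 member rose and 3 fell at 24 h, 11 rose and 8 fell at 48 h, 1 rose in the difference between times, 7 rose and 3 fell with time in controls and 10 rose with time in Kbr cells; it changed the direction of no call. Rises with time in controls went from 1 to 0 with no filter, with array medians subtracted, with the mean of probe sets and with only the groups compared, and falls from 1 to 0 with the last 2 of these. Rises with time in Kbr cells went from 6 to 1 with no filter and with only the groups compared. Leaving out each array in turn gave 1 to 2 falls at 24 h, 4 to 7 rises and 3 to 4 falls at 48 h, 0 to 2 rises in the difference, 0 to 1 rises and 1 to 2 falls with time in controls, and 0 to 7 rises with time in Kbr cells. The cause of these moves was not tested, beyond the smaller number of arrays in a fit.

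The 48 h calls of SLC2A1, EPAS1, NDRG1, KDM3A, PDK3, BNIP3L and P4HA2, and the 24 h call of P4HA2, held in all 12 fits that left out an array and in the 7 other alternatives. Signs turned only in members that had not passed. With the mean of probe sets the 24 h log2 change was 0.082 for EGLN1 and -0.189 for HK2. Leaving out an array gave 24 h ranges of -0.192 to 0.041 for ANKRD37, -0.048 to 0.005 for GAPDH, -0.178 to 0.026 for PFKM and -0.038 to 0.182 for PFKP, and 48 h ranges of -0.295 to 0.055 for EGLN3 and -0.027 to 0.043 for HIF1A. Members near the floor, such as EGLN3, have folds that depend on the background step.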

Other observations

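Several members had more than 1 probe set, and a few differed from the probe set that stood for the gene. HK2, the inducible hexokinase, had further probe sets with 48 h log2 changes of 0.22 (adjusted p = 0.487) and -0.26 (adjusted p = 0.397), against 0.51 for the chosen one, which was also the brightest. PGK1, the kinase of the lower pathway, had 1 probe set at 0.35 (adjusted p = 0.0253) where the chosen one stood at 0.10. EGLN1, the main HIF prolyl hydroxylase, had 1 at 0.47 (adjusted p = 0.04) where the chosen one stood at 0.09. P4HA2 had a further measured probe set at -0.94 at 24 h and -0.98 at 48 h (adjusted p = 0.0159 at 48 h). These p-values are from limma with every probe set tested by itself.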
